A study of Mus musculus with 2 samples.

Results

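The neuropeptide system of the newborn mouse midbrain was described through 48 genes, chosen by symbol as a list of peptide precursors, granule proteins, processing enzymes and receptors, out of 43346 Ensembl genes quantified. All 48 symbols were found, among them 20 precursors, 6 granins and other granule cargo, 5 processing enzymes or inhibitors and 17 receptors. The data were total RNA sequencing of whole midbrain from mice of strain B6NTac;B6NCrl/Lap at postnatal day 0, healthy animals with both sexes pooled, in 2 libraries that the labels call biological replicates from independent isolates. Replicate 1 pooled 15 animals, and the labels do not state the size of the pool behind replicate 2. There was no treatment and no second group, so no test between groups was possible, and each gene is described by its value in both libraries. The libraries held 46685706 and 72779229 counts, and levels are given as TPM, a scale of transcript abundance that corrects for length. All 7 midbrain marker genes were detected, with summed levels of 85.9 TPM in replicate 1 and 71.0 TPM in replicate 2, and so were 5 of 5 pan-neuronal markers.

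Neuropeptides are made as longer precursors, packed into dense core granules with the granins, cut by proprotein convertases, trimmed by carboxypeptidase and often amidated at the end. After release they act mostly on G protein-coupled receptors. In the midbrain, peptide-containing cells are known from the periaqueductal grey, the tectum and the dopamine cell groups, and opioid and tachykinin signals there take part in pain control and movement. Because whole tissue was sequenced, fewer cells of a type and less RNA per cell cannot be told apart.

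A gene was called detected when each library gave it 1 TPM or more. By that rule 36 of 48 genes (75%) were detected, against a background of 27.7% of all Ensembl genes and 53.8% of protein-coding genes. All 6 granule proteins and all 5 processing genes were detected, and so were 12 of 20 precursors and 13 of 17 receptors. Protein-coding genes held only 223525 of the 990780 TPM on Ensembl genes in replicate 1, and 197718 of 992532 in replicate 2. With TPM rescaled over protein-coding genes alone, 44 members passed the rule, among them 16 of 20 precursors and all 17 receptors. The background was not recounted on that scale. The granule proteins had a median of 26.2 TPM in replicate 1 and 29.3 TPM in replicate 2, and the processing genes 21.9 and 22.8 TPM. The latter median is the value of Pam, and on protein-coding transcripts alone it was 13.8 and 10.5 TPM. The precursors had medians of only 2.18 and 2.37 TPM and the receptors 2.18 and 1.70 TPM, while protein-coding genes as a whole had 1.91 and 1.61 TPM. The medians of the shared secretory machinery thus lay above those of the precursors and receptors in both libraries. Together the 48 genes held 0.336% and 0.360% of the TPM of protein-coding genes.

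**Figure D1:**
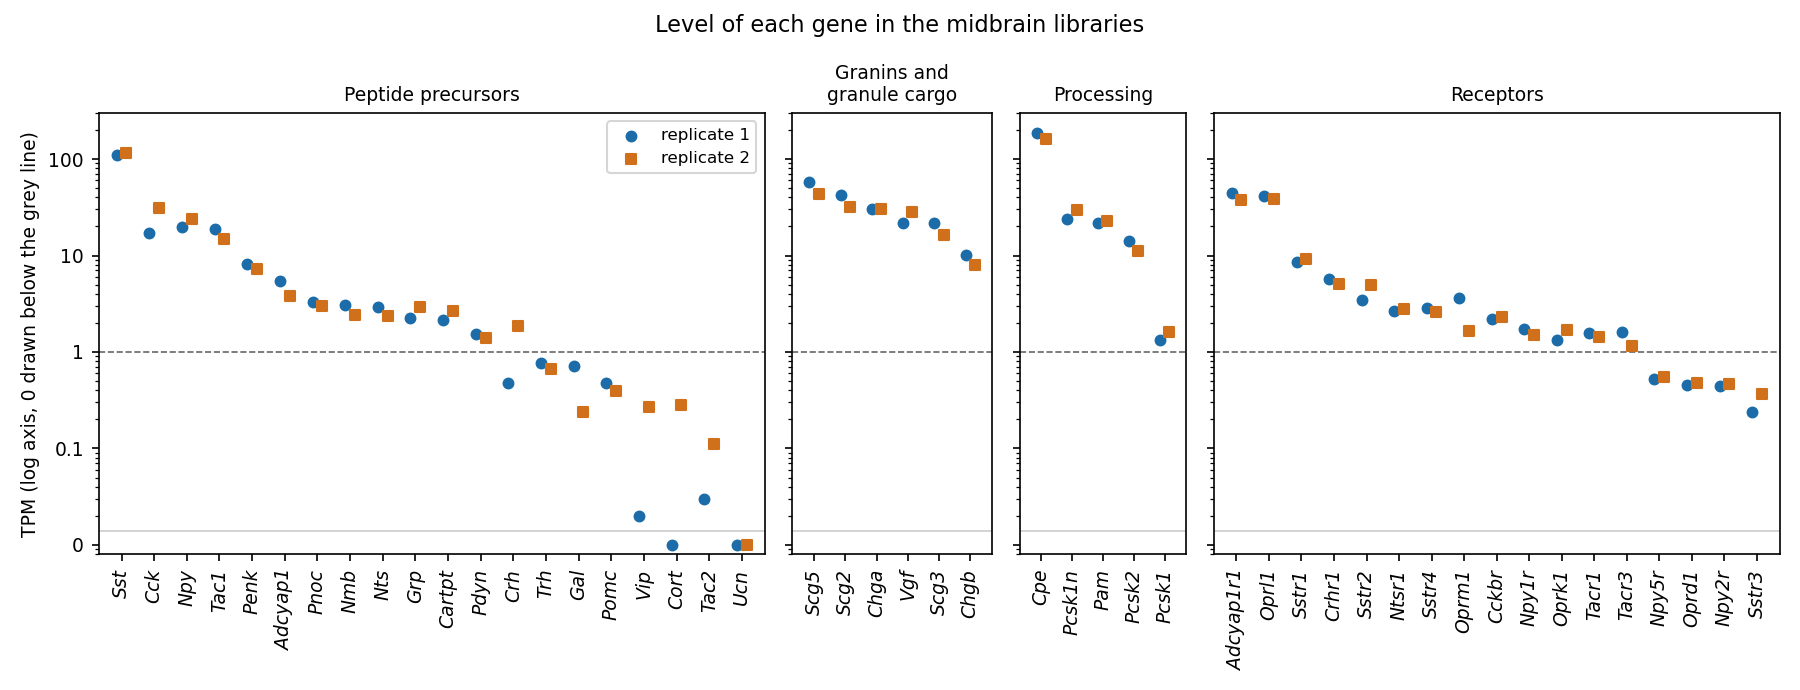
TPM of each of the 48 genes on a log axis, grouped by role and ordered by mean, with circles for replicate 1 and squares for replicate 2. The dashed line marks the detection level of 1 TPM, and values of 0 are drawn below the grey line. Somatostatin stands above the other precursors, and Cpe above every gene shown.

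Sst, the precursor of the inhibitory peptide somatostatin, had the highest level of the precursors, with 110.52 TPM in replicate 1 and 115.94 TPM in replicate 2 (113 ± 3.83 TPM, SD, n = 2). The libraries lay close together, above 98.9% of protein-coding genes in replicate 1 and 99.2% in replicate 2. Sst lies at chr16:23889573-23890958 on the minus strand (GRCm38, the assembly of mm10) and carried 56.0% and 53.9% of all precursor TPM. Its RefSeq promoter is shown here because it holds the cyclic AMP response element TGACGTCA, the sequence through which the transcription factor CREB is known to act on this gene. The stretch shown spans chr16:23890859-23890918 (minus strand, GRCm38.p6), with the element in capitals at 48 to 41 bases before the RefSeq start. It lies inside the span of the gene given above, which is from GENCODE and starts further upstream.
Sst promoter: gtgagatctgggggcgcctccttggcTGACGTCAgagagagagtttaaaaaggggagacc

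Of the other precursors, 3 exceeded 10 TPM in both libraries. Cck, the precursor of cholecystokinin, had 16.94 TPM in replicate 1 and 30.75 TPM in replicate 2, the widest gap among the 4 leading precursors. Npy, the precursor of neuropeptide Y, had 19.88 and 24.04 TPM. Tac1, which encodes substance P and neurokinin A, had 18.74 and 14.66 TPM. The values of Cck and Npy overlapped, so their order is not settled, while Tac1 lay below both values of Npy. In replicate 1, however, Tac1 lay above Cck. The authors' credibility bounds for Tac1 and Npy also overlapped there, at 17.57 to 19.87 TPM and 17.90 to 21.59 TPM. With Sst, these 4 genes held 84.2% and 86.2% of precursor TPM.

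Penk, the enkephalin precursor, followed with 8.07 and 7.29 TPM, and Adcyap1, the precursor of the peptide PACAP, with 5.42 and 3.80 TPM. Pnoc, the precursor of nociceptin, had 3.29 and 2.97 TPM. A group of near-equal genes came next, in which neighbours in the order overlapped. Nmb, encoding neuromedin B, had 3.07 and 2.39 TPM, and Nts, encoding neurotensin, 2.95 and 2.34 TPM. Grp, encoding gastrin-releasing peptide, had 2.23 and 2.95 TPM, and Cartpt, encoding the CART peptides, 2.13 and 2.67 TPM. Pdyn, the dynorphin precursor, was the lowest detected precursor with 1.54 and 1.40 TPM.

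The other 8 precursors did not reach 1 TPM in both libraries. Crh, encoding corticotropin-releasing hormone, had 0.48 TPM in replicate 1 and 1.84 TPM in replicate 2, so only replicate 2 passed the level. Trh, encoding thyrotropin-releasing hormone, had 0.77 and 0.66 TPM, Gal, encoding galanin, 0.72 and 0.24 TPM, and Pomc, encoding the melanocortins and beta-endorphin, 0.48 and 0.39 TPM. These 4 genes were measured at low levels but were not absent. Vip had 2 counts in replicate 1 and 47 in replicate 2, or 0.02 and 0.27 TPM. Tac2, encoding neurokinin B, had 1 and 6 counts, and Cort, encoding the somatostatin relative cortistatin, had 0 and 16 counts. Ucn, encoding urocortin, had 0 counts in both, which allows up to 3 counts, or 0.0643 CPM in replicate 1 and 0.0412 CPM in replicate 2 (CPM scales counts to a common library size).

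In the granule group, Scg5, encoding the chaperone 7B2 of prohormone convertase 2, led with 57.52 TPM in replicate 1 and 42.94 TPM in replicate 2. Scg2, encoding secretogranin II, had 42.25 and 31.72 TPM. Chga, encoding chromogranin A, had 30.45 and 30.48 TPM, and Vgf, a growth factor-inducible granule protein that yields several peptides, 21.97 and 28.14 TPM. Scg3, encoding secretogranin III, had 21.81 and 16.28 TPM, and Chgb, encoding chromogranin B, 10.11 and 7.95 TPM. At each of the 5 steps in this order the point estimates of the neighbours did not overlap, but some of the authors' credibility bounds did. In replicate 1 Vgf had bounds of 20.86 to 22.72 TPM and Scg3 20.87 to 22.34 TPM. In replicate 2 Scg2 had 30.89 to 32.15 TPM and Chga 29.59 to 31.01 TPM. Chgb was the lowest, with log2 ratios over Chga of -1.58 in replicate 1 and -1.93 in replicate 2.

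Cpe, encoding the carboxypeptidase that trims basic residues after cleavage, had the highest level of the 48 genes, with 184.76 and 162.21 TPM, above 99.5% of protein-coding genes in each library. It held 75.1% and 71.4% of the TPM of the processing group. Cpd, a related carboxypeptidase outside the list, was lower by log2 ratios of 4.46 and 4.61. Pcsk1n, encoding proSAAS, an inhibitor of convertase 1, had 23.75 and 29.53 TPM. Pam, encoding the enzyme that amidates peptide ends, had 21.94 and 22.75 TPM. The convertases themselves were lower, Pcsk2 at 14.10 and 11.16 TPM and Pcsk1 at 1.32 and 1.60 TPM. Pcsk2 exceeded Pcsk1 by log2 ratios of 3.32 and 2.73, and each convertase lay below its partner protein. Scg5 exceeded Pcsk2 by 2.02 and 1.93 on the log2 scale, and Pcsk1n exceeded Pcsk1 by 4.07 and 4.12.

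Of the 17 receptors, 2 stood far above the rest. Adcyap1r1, encoding PAC1, the PACAP receptor (chr6:55451978-55501451, plus strand, GRCm38), had 44.61 TPM in replicate 1 and 38.02 TPM in replicate 2. Oprl1, encoding the nociceptin receptor (chr2:181715016-181720985, plus strand), had 41.67 and 38.44 TPM, and the values of these genes overlapped. Together they held 70.1% and 67.9% of all receptor TPM. The next was Sstr1, a somatostatin receptor, with 8.50 and 9.10 TPM.

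The other detected receptors lay between 1 and 6 TPM. Crhr1, the main receptor of corticotropin-releasing hormone, had 5.66 and 5.12 TPM. Of the somatostatin receptors, Sstr2 had 3.49 and 4.90 TPM, Sstr4 had 2.87 and 2.58 TPM, and Sstr3 stayed below 1 TPM with 0.24 and 0.37 TPM. Ntsr1, a neurotensin receptor, had 2.68 and 2.79 TPM, and Cckbr, the cholecystokinin receptor that prevails in brain, 2.18 and 2.31 TPM. Tacr1, the substance P receptor, had 1.56 and 1.42 TPM, and Tacr3, the neurokinin B receptor, 1.62 and 1.14 TPM. Their values overlapped. Npy1r had 1.72 and 1.51 TPM. The other listed neuropeptide Y receptors stayed below 1 TPM, Npy2r at 0.44 and 0.47 TPM and Npy5r at 0.52 and 0.55 TPM.

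Within the opioid receptors, Oprl1 held 88.6% and 90.9% of the summed TPM. Oprm1, the mu receptor on which morphine acts, had 3.59 and 1.66 TPM, Oprk1, the kappa receptor, 1.33 and 1.70 TPM, and Oprd1, the delta receptor, 0.46 and 0.48 TPM. Oprl1 exceeded Oprm1 by log2 ratios of 3.50 and 4.45. The level of Oprm1 is uncertain. The authors' credibility bounds for its TPM, 4.05 to 23.5 in replicate 1 and 2.06 to 9.06 in replicate 2, lie above its point estimates. Of its 31 annotated transcripts, 2 short ones of 242 and 256 bases had 0 counts but upper bounds of 15.6 and 8.16 TPM in replicate 1. At the upper bound in replicate 1 the gap between Oprl1 and Oprm1 would be under 2-fold. In counts, without regard to length, Oprm1 had 435 and 459 and Oprl1 had 8371 and 14220.

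**Figure D2:**
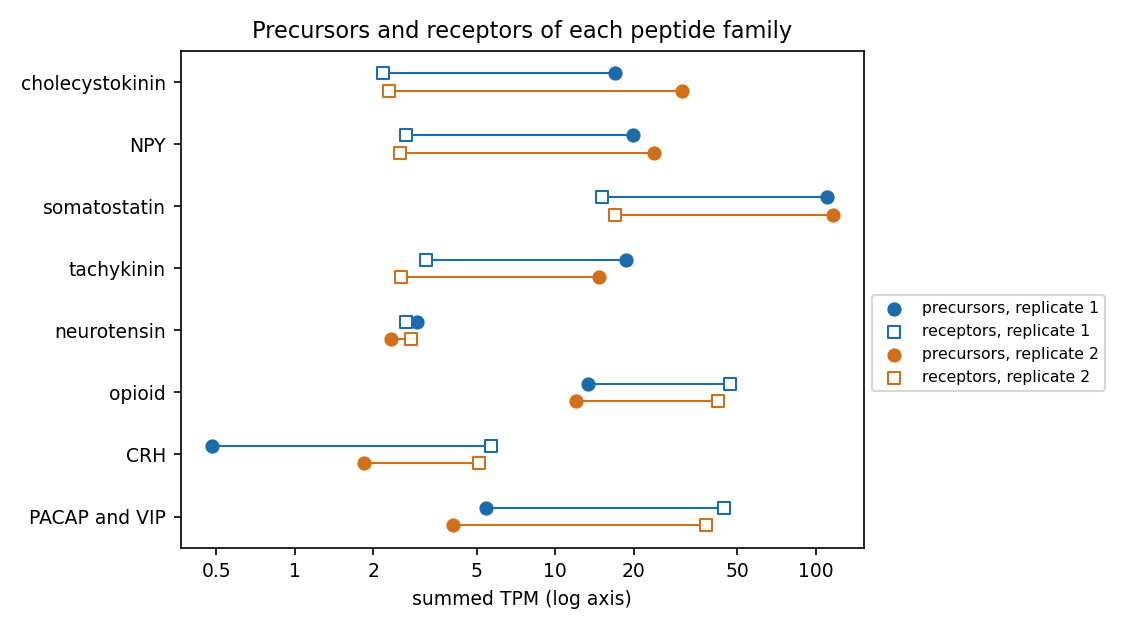
Summed TPM of the precursors (filled circles) and receptors (open squares) of 8 peptide families on a log axis, with replicate 1 in blue and replicate 2 in orange. Precursors lie to the right of receptors in 4 families and to the left in 3, and the neurotensin pair lies close together.

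The balance of precursor and receptor RNA differed between families. Log2 ratios of summed precursor TPM over summed receptor TPM were 3.35 ± 0.55 for cholecystokinin, 3.07 ± 0.25 for neuropeptide Y, 2.82 ± 0.07 for somatostatin and 2.54 ± 0.02 for the tachykinins (SD, n = 2). In these families precursor RNA exceeded receptor RNA in both libraries. The order was turned in the opioid family, with -1.81 ± 0.002, in the CRH family, with -2.52 ± 1.47, and in the PACAP and VIP family, with -3.13 ± 0.13. Neurotensin had -0.06 ± 0.28, with opposite signs in the libraries. Its receptor side is Ntsr1 alone. Ntsr2, outside the 48 genes, had 2.05 and 2.87 TPM, and with it the receptors would exceed Nts in both libraries. The sign in the opioid family rests on Oprl1. Without it, precursors of 13.38 and 12.05 TPM stood against receptors of 5.38 and 3.84 TPM, a log2 ratio of 1.48 ± 0.24, and without Oprl1 and its ligand gene Pnoc the ratio was 1.07 ± 0.24. Penk exceeded Oprm1 by log2 ratios of 1.15 and 2.07, a pair that carries the uncertainty of Oprm1 given above. These sums cover only the receptors among the 48 genes, and a ratio of RNA levels is not one of peptide and receptor molecules.

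Members of a family were also compared as pairs within each library, by the log2 ratio of TPM + 0.1, and a pair was called where each library put the same gene 2-fold or more higher. The pairs were chosen with earlier results known, and the share of other gene pairs that pass this rule was not counted. The counts that follow thus describe this list alone. Of 30 pairs, 29 had counts for both genes, and 23 of these were called, 20 with the first-named gene higher and 3 with the second-named gene higher. The latter were Chgb below Chga, Pnoc below its receptor Oprl1 (-3.64 ± 0.02, mean log2 ratio, SD, n = 2) and Adcyap1 below its receptor Adcyap1r1 (-3.15 ± 0.19). Penk exceeded Pdyn (2.31 ± 0.01) and Pnoc (1.27 ± 0.001) by nearly the same amount in both libraries on the TPM scale. That match depends on the estimated length of Penk, 1001 bases in replicate 1 and 825 in replicate 2. In counts, without regard to length, Penk had 446 and 563 and lay below Pnoc, with 474 and 792. Crhr1 exceeded Crhr2 (3.72 ± 0.14), and Cckbr exceeded Cckar (3.39 ± 0.28). Adcyap1r1 exceeded Vipr2, a receptor shared by VIP and PACAP (5.85 ± 0.42). Ratios over Cort, Tac2 and Vip rest on 0 to 2 counts in replicate 1 and are set there largely by the added 0.1. Crh over Ucn was not counted and has no ratio, since Ucn had 0 counts.

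**Figure D3:**
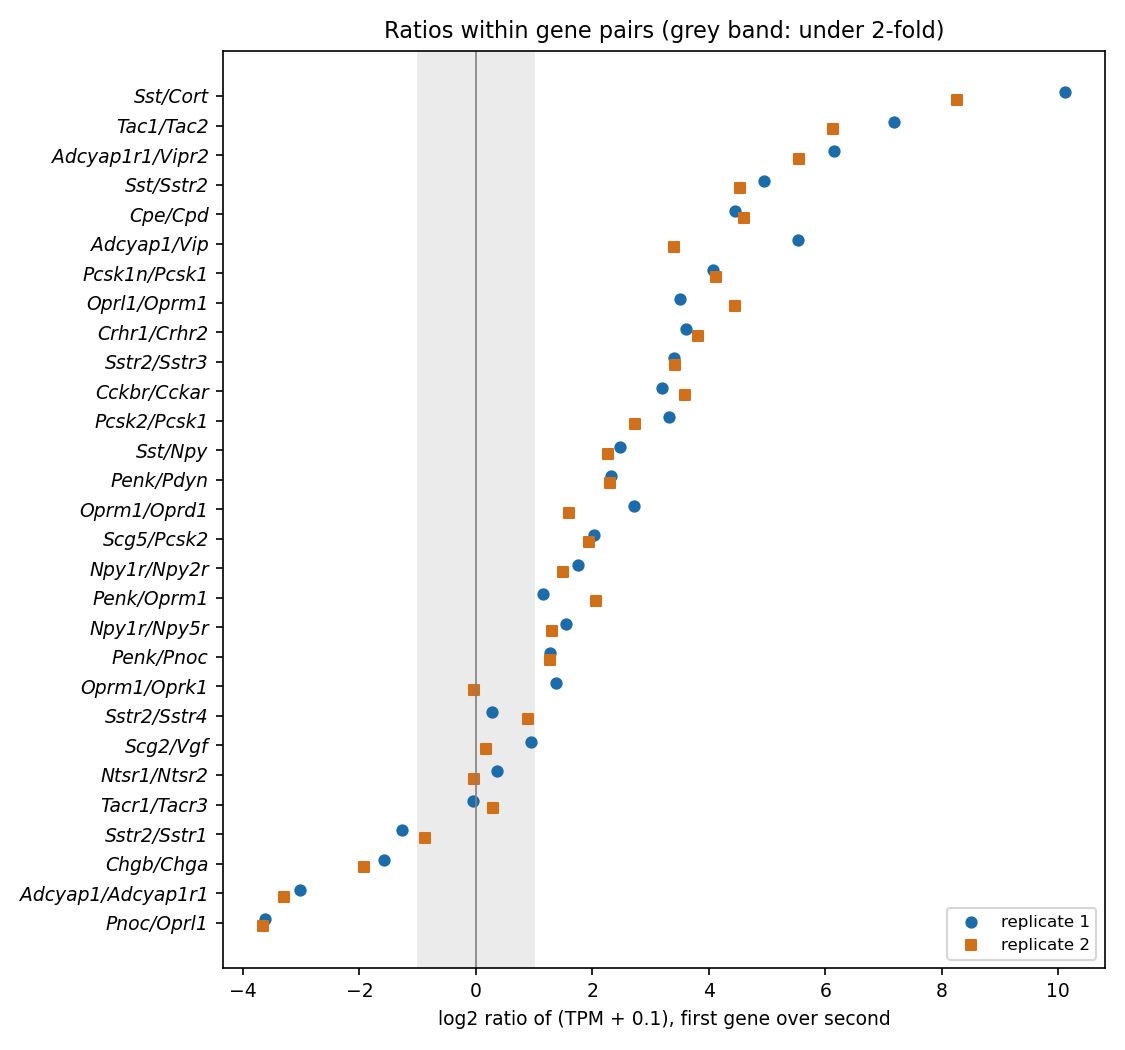
Log2 ratio of TPM + 0.1 within 29 gene pairs, the first-named gene over the second, with circles for replicate 1 and squares for replicate 2. The grey band marks ratios under 2-fold. The pair of Crh and Ucn is left out because Ucn had 0 counts.

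The other 6 pairs were not called. Scg2 and Vgf, Oprm1 and Oprk1, Sstr2 and Sstr4, Tacr1 and Tacr3, and Ntsr1 and Ntsr2 each had a ratio under 2-fold in at least 1 library. Sstr2 was lower than Sstr1 in both, by log2 ratios of -1.26 and -0.88, which passed 2-fold in replicate 1 alone. Oprm1 exceeded Oprk1 by 1.37 in replicate 1, and the ratio was -0.03 in replicate 2.

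Transcript estimates gave the share of each annotated form of these genes. They divide reads among annotated transcripts that also differ outside the optional exons, and reads across exon junctions were not counted here. Tac1-205 is 1230 bases long and Tac1-203 691, while Adcyap1r1-202 has 6107, Adcyap1r1-201 3695 and Adcyap1r1-203 1745. The exon shares below depend on that division. Tac1 gives rise to beta-preprotachykinin, with all coding exons, gamma, which lacks the fourth exon of the transcript, and alpha, which lacks the exon that encodes neurokinin A. Its optional exons are printed in capitals with 12 bases of the neighbouring exons on each side, read from GENCODE M21 transcripts. The 45-base exon lies at chr6:7557216-7557260 and the 54-base exon at chr6:7559099-7559152, both on the plus strand (GRCm38).
Tac1 45-base exon: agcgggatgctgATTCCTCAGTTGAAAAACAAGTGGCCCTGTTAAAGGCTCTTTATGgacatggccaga
Tac1 54-base exon: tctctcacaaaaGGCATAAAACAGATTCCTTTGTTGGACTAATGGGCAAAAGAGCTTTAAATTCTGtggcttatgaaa
The 45-base exon was in 77.4% and 71.2% of the TPM of Tac1 coding transcripts that span it, and the 54-base exon in 100% in both libraries. Tac1-205, with both exons, carried 14.46 and 10.41 TPM, and Tac1-203, without the 45-base exon, 4.23 and 4.22 TPM. Tac1-201, the form without the neurokinin A exon, was estimated at 0 in both, with upper bounds of 0.241 and 0.195 TPM.

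The PAC1 receptor gene Adcyap1r1 has optional exons named hip and hop, which code for part of the third intracellular loop, the part of the receptor that meets the G protein. The hop exon comes in versions of 84 and 81 bases that differ by 3 bases at the start. The hip exon lies at chr6:55487659-55487742 and the longer hop exon at chr6:55491227-55491310, both on the plus strand (GRCm38). Capitals mark the whole hip exon with its neighbours in lower case, and, in the hop line, only the 3 bases that the shorter version lacks.
Adcyap1r1 hip exon: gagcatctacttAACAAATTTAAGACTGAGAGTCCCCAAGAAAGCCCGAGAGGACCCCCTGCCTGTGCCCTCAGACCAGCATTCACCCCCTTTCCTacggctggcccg
Adcyap1r1 hop exon: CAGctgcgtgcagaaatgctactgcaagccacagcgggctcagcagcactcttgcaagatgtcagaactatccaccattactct
Adcyap1r1-202, with neither exon, led with 60.0% of the gene in replicate 1 and 59.4% in replicate 2. The 84-base hop exon was in 22.6% and 24.1% of the spanning coding TPM, the 81-base version in 13.2% in each library, and the hip exon in only 1.30% and 1.33%. The exons of 21 and 42 bases in the extracellular, ligand-binding part were in 99.3% and 99.5%. These shares moved by less than 2 percentage points between the libraries.

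**Figure D4:**
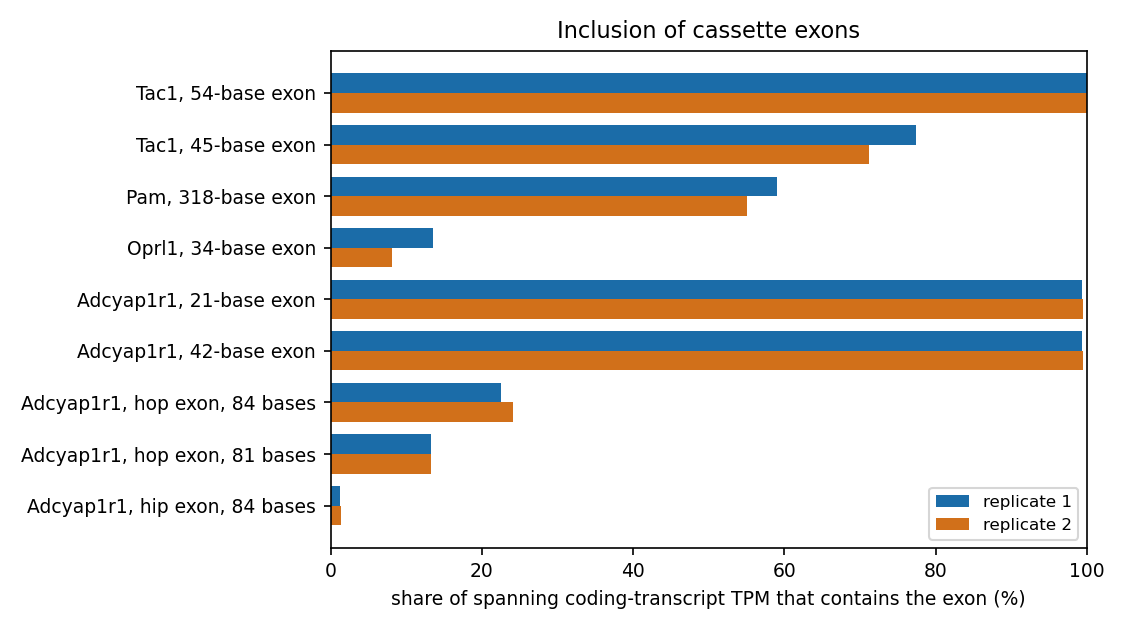
Share of the TPM of spanning coding transcripts that contains each optional exon, in percent, with blue bars for replicate 1 and orange bars for replicate 2. The 54-base exon of Tac1 and the 21- and 42-base exons of Adcyap1r1 are near 100%, and the hip exon is near 1%.

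Of the 36 detected genes, 17 had 1 quantified transcript and 19 had several. Among the 19, 14 had the same leading transcript in both libraries, and Grp, Nmb, Pam, Oprk1 and Ntsr1 did not. The coding transcripts of Pam held 62.8% of its TPM in replicate 1 and 41.0% in replicate 2, while Pam-211, a short noncoding transcript of 610 bases, went from 15.7% to 52.0%. The summed TPM of Pam was near equal in the libraries while its transcripts differed. A 318-base coding exon of Pam was in 59.0% and 55.1% of the spanning coding TPM. Oprl1 was led by the coding Oprl1-201 with 58.9% and 62.4%, and Oprl1-209, annotated as a target of nonsense-mediated decay, held 19.3% and 24.1%. Grp had a coding share of 73.5% and 43.1%, and Nmb one of 62.2% and 64.3%. Nmb shares 163 exon bases with Sec11a on the same strand, and Pam 105 with B230216N24Rik, so their reads may be split. Oprm1, Pcsk1n, Pcsk2 and Penk overlap exons of genes on the opposite strand, and whether the authors' counting used strand is not stated.

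Between the isolates, most members lay within 1.5-fold, at a share near that of all genes. TPM is not scaled between the libraries, and its median log2 ratio, replicate 2 over replicate 1, was -0.27 over all detected genes and -0.14 over detected members. Counts scaled by edgeR's TMM method were compared for genes with 20 or more counts over both libraries, with 0.5 added to each count. Of 45 members tested, 4 were at least 2-fold higher in replicate 2, against a background of 7.72% of 17574 genes, and 1 was higher in replicate 1, against 5.83%. Of the 45, 36 (80.0%) lay within 1.5-fold, against a background of 75.6%. The counts of members past 2-fold are small, and their shares lie near the background.

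The members higher in replicate 2 were Vip (log2 ratio 3.65), Crh (2.22), Cck (1.15) and Npy2r (1.02), and Gal was higher in replicate 1 (-1.26). Crh had 38 counts in replicate 1 and 271 in replicate 2, and Cck had 526 and 1766. The rise of Vip was 15.5-fold with an exact 95% counting interval of 4.06 to 132, which covers counting error only. Npy2r had 62 and 192 counts but 0.44 and 0.47 TPM, and its length averaged over the estimated transcripts was 2116 bases in replicate 1 and 3154 in replicate 2. Cort, too low for this comparison, had 0 and 16 counts. With 3 counts put in place of the 0, its ratio was 3.52, a value that leaves out the counting error of the 16. Tac2, with 1 and 6 counts, had a ratio of 3.96 with an interval of 0.480 to 182.

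Markers of neighbouring tissue moved between the same libraries. The summed level of 6 hindbrain markers went from 0.88 TPM in replicate 1 to 5.88 TPM in replicate 2, with 5 of 6 past 2-fold, and that of 5 choroid plexus markers from 17.4 to 168 TPM, with 3 of 5 past 2-fold. Most of the latter change was in Ttr, the transthyretin gene, at 14.43 and 162.57 TPM, and the other 4 choroid plexus markers summed to 2.98 and 5.19 TPM. Forebrain markers summed to 5.52 and 4.59 TPM, with 2 of 8 detected, and hypothalamus markers to 6.16 and 4.50 TPM, with 1 of 8 detected. Pituitary markers summed to 0.21 and 0.24 TPM, and 6 of 8 were at 0 counts in both libraries. All 5 meninges markers were detected, with sums of 65.7 TPM in replicate 1 and 49.5 TPM in replicate 2 and 0 past 2-fold. All 5 blood markers were detected too, with sums of 588 and 726 TPM and 1 past 2-fold. The part of these tissues in the levels of Vip, Crh, Cck, Gal and Cort was not tested.

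**Figure D5:**
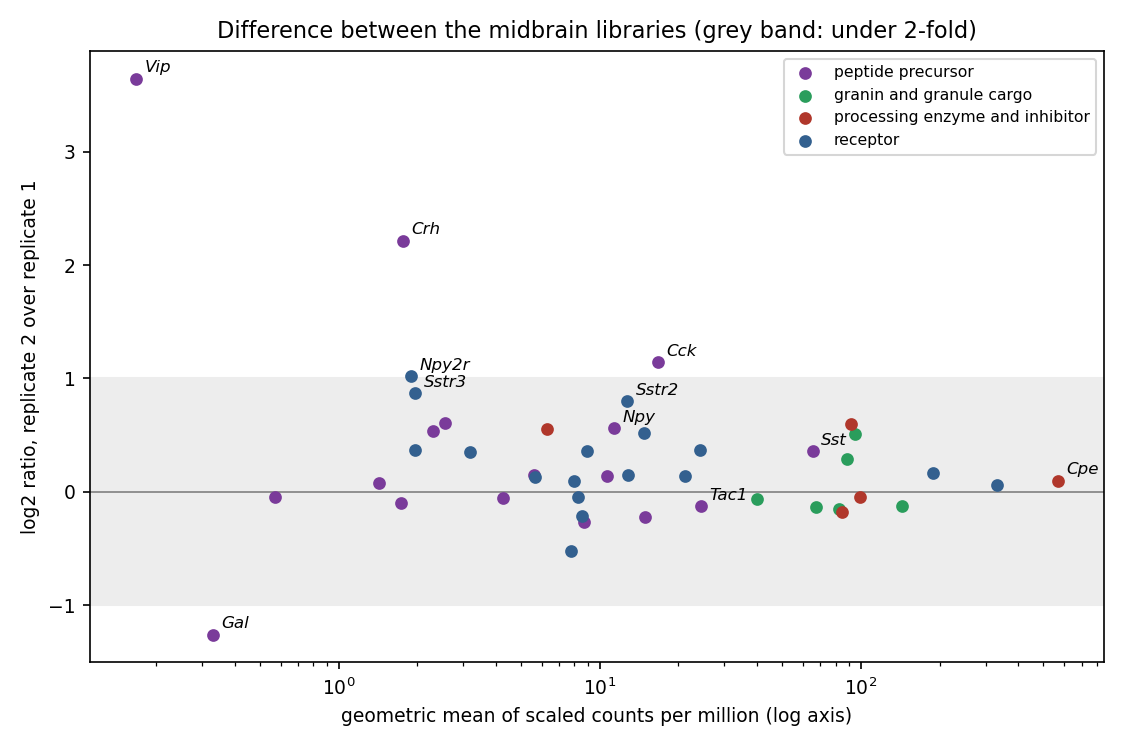
Log2 ratio of TMM-scaled counts, replicate 2 over replicate 1, against the geometric mean of scaled CPM on a log axis, for the 45 members tested, coloured by role. The grey band marks ratios under 2-fold. Vip, Crh, Cck and Npy2r lie above the band and Gal below it.

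Other genes of the pathway were counted in 5 further lists. Of 12 other processing genes, 11 were detected, led by Ctsl, a protease with a role in prohormone cleavage, at 20.67 and 16.86 TPM, then Tpst1 and Tpst2, which sulfate tyrosines, and Cpd. Of 12 genes of dense core vesicle formation and release, 11 were detected. Rab3a, a small GTPase of vesicle release, had 138.43 and 122.88 TPM, followed by Rab2a at 86.45 and 58.72 TPM, Syt4, and Cadps, a priming factor of dense core vesicles, at 38.11 and 26.08 TPM. Of 11 peptide-degrading enzymes, 8 were detected, led by Prep at 16.11 and 16.62 TPM and Nln, neurolysin, at 17.09 and 15.08 TPM, then Thop1 and Ece1.

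By contrast, 6 of 39 other precursors were detected, and 12 had 0 counts in both libraries. Nucb2, the nesfatin precursor, led with 9.27 and 2.39 TPM, followed by Avp, encoding vasopressin, with 2.28 and 2.23 TPM, Apln and Calca. Those at 0 counts included Agrp, Gnrh1, Ghrl, Nmu, Pyy and Npvf. Of 43 other peptide receptors, 14 were detected. Ednrb, an endothelin receptor, had 29.12 and 28.83 TPM, Sort1, a sorting receptor that also binds neurotensin, 20.32 and 19.14 TPM, and Npr2 and Prokr2 followed.

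The element seen in the Sst promoter was searched for in the promoters of all members. RefSeq promoters, 250 bases before to 50 after the start, were at hand for 40 of 48 members, all but Penk, Pnoc, Crh, Grp, Vgf, Cpe, Sstr1 and Oprk1. The palindrome TGACGTCA, which reads the same on both strands, was in the promoters of 7 of 40 members (17.5%), against 2.03% of 27025 genes and 2.54% of 17491 protein-coding genes in the same table. They were Sst, Cartpt, Ucn, Scg2, Chgb, Pcsk1 and Sstr2. The shorter element TGACG on either strand, which the palindrome contains, was in 57.5% of members and in 23.0% of all genes and 26.2% of protein-coding genes. The TATA box letters TATAAA, on the strand of the gene, were in 12.5% of members and 9.77% of all genes. A match is a description of letters and not of factor binding, which was not measured.

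The stretches of 60 bases around the palindrome in the other 6 promoters are shown because they span the roles from peptide to receptor, with the element in capitals and all on GRCm38.p6. They lie at chr13:99900762-99900821 (minus) for Cartpt, chr5:31138906-31138965 (minus) for Ucn and chr1:79440061-79440120 (minus) for Scg2. Those of Chgb at chr2:132781544-132781603, Pcsk1 at chr13:75089753-75089812 and Sstr2 at chr11:113619243-113619302 are on the plus strand.
Cartpt promoter: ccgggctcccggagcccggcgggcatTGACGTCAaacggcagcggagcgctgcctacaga
Ucn promoter: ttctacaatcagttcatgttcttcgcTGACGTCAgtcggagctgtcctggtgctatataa
Scg2 promoter: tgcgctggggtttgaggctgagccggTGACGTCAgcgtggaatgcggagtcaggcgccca
Chgb promoter: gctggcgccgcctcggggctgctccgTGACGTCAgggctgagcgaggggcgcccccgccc
Pcsk1 promoter: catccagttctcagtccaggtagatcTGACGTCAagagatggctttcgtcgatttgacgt
Sstr2 promoter: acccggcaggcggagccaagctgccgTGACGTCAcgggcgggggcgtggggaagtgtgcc
The first base of the element lay between 44 bases (Ucn) and 112 bases (Cartpt) before the RefSeq start. The stretches of Scg2, Chgb and Cartpt, like that of Sst, lie inside the GENCODE spans of their genes. The levels of the 7 genes ranged widely, from Ucn with 0 counts and Pcsk1 with 1.32 and 1.60 TPM to Sst with 110.52 and 115.94 TPM.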

How the data were processed

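Per the labels, rRNA-depleted total RNA over 200 nucleotides was read as stranded pairs of 101 bases with spike-ins added. Per the notes deposited with the samples, the authors quantified genes and transcripts from transcriptome alignments on mm10 with GENCODE M4. For the aligner and quantifier, names and versions were not given in the sources used here. Expected counts, as deposited, are estimates, since a read that fits several features is divided, and were rounded here for ratios. The deposited TPM and FPKM values correct for effective length and were used as given, FPKM as an alternative. Transcript shares (percent of the gene's TPM) were taken from the deposited tables, as were the credibility bounds.

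Symbols, transcript classes and exons came from GENCODE M21 (GRCm38, 42462 identifiers matched), promoters from RefSeq (GRCm38.p6). Exon inclusion is the TPM of complete coding transcripts with the exon over all that span it. Ratios between the libraries used TMM scaling (edgeR 4.0.16, R 4.3.3), with DESeq2 1.42.0 size factors as an alternative, and the calculation was checked on simulated data. Depth was 46685706 and 72779229 counts, of which 1.21% and 1.06% lay outside Ensembl genes. Floors of 3 counts and intervals cover counting error only. A chi-square of 51.4 per degree of freedom over 18554 genes showed that the libraries are not 1 library deposited again.

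The members, gene lists and pairs were chosen with earlier results of these data known. All 48 members are named, with both genes of each pair and the 4 highest genes of each other list. Genes at 0 counts are named where absence is described. Kiss1 and Galr3 had no match in the tables and are not analysed here.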

Additional observations from a re-analysis of the deposited data

How the results depend on the processing

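The number of members detected was 36, and it was 38 at 0.5 TPM, 37 by FPKM, 44 with TPM rescaled over protein-coding genes, 36 by the lower credibility bound and 19 at 5 TPM. In a single library it was 36 to 37. The background share was counted only for 1 TPM in both libraries, so the counts in the other settings have none beside them. On protein-coding transcripts alone, the median of the precursors moved from 2.27 to 1.73 TPM and that of the processing group from 22.3 to 12.2 TPM, through the coding shares of Grp and Nmb in the former and of Pam in the latter. In the same setting, the levels of 4 single members moved by more than their SD (n = 2) and those of 44 did not. Members with 1 quantified transcript, which was a coding one, could not move. Called pairs numbered 23, and 19 with a pseudocount of 1, which lost Oprm1 over Oprd1, Npy1r over Npy2r and over Npy5r, and Penk over Oprm1. None of 145 recomputed pair ratios reversed a call, but only the setting of protein-coding transcripts alone could have done so. A pseudocount of 1 and FPKM keep the order of 2 genes within a library. A call already needs the same order in both libraries, so leaving 1 out cannot reverse it. Members 2-fold higher in replicate 2 numbered 3 to 6 across the scalings and count minimums tried, and Npy2r was no longer called with library totals (0.98). With a minimum summed count of 100, 0 were higher in replicate 1, since Gal was left out. Of the 10 members of at least 5 TPM with several transcripts, 90% shared a leader between the libraries, and the median coding share over members with several transcripts was 99.9%. The opioid family's ratio of precursors over receptors, -1.81, reversed to 1.48 without Oprl1 and 1.07 without Oprl1 and Pnoc. These alternatives and those of the sentence before were chosen after seeing the data. No paired analysis was possible because there is 1 group. Without further libraries, a difference between the isolates cannot be set against a spread, and genes under about 20 counts are limited by depth.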
